A study of Zea mays with 10 samples.

Results

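The G2/M phase genes are 304 maize genes that the study listed as markers of cells preparing for and passing through mitosis, out of 45953 genes in the count tables. They were taken from the G2/M section of its cell cycle gene table, which has 310 entries, by keeping the 304 marked as used. The other 6 were marked as undetected by the study, and no member is shared with the S phase section. The list joins genes found in maize anther cells around meiosis, genes found in dividing cells of the maize shoot apex, and orthologs of rice genes. All 304 identifiers were found in both count tables. By their annotation text, 141 members were sorted into 14 groups of defined role, 103 had an annotation outside these roles and 60 had none.

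Messenger RNA was sequenced in bulk from 10 libraries of immature endosperm of the maize inbred line B73, wild type and grown in a greenhouse, at 6 or 7 days after pollination (DAP). In the stage experiment, 6 DAP endosperm and 7 DAP endosperm had 3 replicates each, every replicate a pool of endosperms from the kernels of a separate ear. In the protoplast experiment, undigested endosperm and protoplasts, which are cells freed from the tissue by enzymes that digest the wall, had 1 library each at 6 DAP and at 7 DAP. All values below come from counts of uniquely mapped read pairs per gene, so near-identical gene copies are uncertain, and the strand setting of the counting is not given in the sources used here.

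In late G2, B-type cyclins and their cyclin-dependent kinases (CDKs) drive the cell into mitosis, and in plants many of their genes are switched on together through transcription factors of the MYB3R family. Chromosomes are then condensed, attached by kinetochores to a spindle of microtubules under a checkpoint, separated once the anaphase-promoting complex (APC/C) marks cyclins for destruction, and parted by a cell plate that grows within the phragmoplast. Maize endosperm first forms as a multinucleate cell, becomes cellular, divides by mitosis, and later turns to endoreduplication, in which DNA is replicated without division.

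HMG9 (Zm00001d016082, annotated as high mobility group B protein 6, a DNA-bending chromatin protein) is the member for which the study also made an RNA probe. Its primer pair is shown, 5′ to 3′ and without the added tail of the reverse primer, because it is the sequence in the study's tables that identifies a member. Its position in the genome is not given here.
HMG9 forward primer: tgacagaaggtcagagggct
HMG9 reverse primer without its tail: tgagctttgggccttagtgt

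Library totals were 15911047 to 24311056 counts in the stage experiment and 22234742 to 30203337 counts in the protoplast experiment. Levels are given in CPM, a gene's share of the library's counts times 1e6, scaled in the stage experiment by trimmed-mean (TMM) factors and in the protoplast experiment by library totals. Marker genes of the 5 endosperm cell types were detected in every kind of sample, none of them at 0, which fits the labelled tissue. From 6 to 7 DAP all 4 embryo markers were higher, at a summed 65.2 to 71.9 CPM at 6 DAP and 543 to 570.4 CPM at 7 DAP, as was the nucellus marker, at 3.78 to 6.42 CPM and 11.3 to 12.6 CPM. All 3 aleurone markers were higher at 7 DAP, at a summed 5711 to 5923 CPM and 9191 to 9415 CPM. The 3 basal transfer layer markers counted here, TCRR1, TCRR2 and BETL9, were all lower, at 605 to 656 CPM and 188 to 195 CPM. Other transfer layer markers of the study, such as MRP1 and MEG1, were not counted. All 3 markers of the embryo-surrounding region (281 to 293 CPM and 1495 to 1517 CPM) and all 3 of the endosperm adjacent to the scutellum (32.6 to 33.9 CPM and 90.6 to 91.8 CPM) were higher at 7 DAP, while of the 5 starchy endosperm markers 4 were higher and 1 lower (4640 to 4807 CPM and 6633 to 6776 CPM). In protoplasts 4 of the 5 starchy endosperm markers were lower, and their sum was 5223 and 7637 CPM in undigested endosperm and 1856 and 1614 CPM in protoplasts, at 6 and 7 DAP. All 3 markers of the embryo-surrounding region were lower there, at 296 and 1647 CPM before and 72.9 and 551 CPM after digestion, as were 2 of 3 of the basal transfer layer, at 432 and 147 CPM and 92.4 and 71.0 CPM, and 2 of 3 of the endosperm adjacent to the scutellum, at 34.0 and 96.5 CPM and 11.6 and 11.1 CPM. None of the 3 aleurone markers passed, at 5551 and 9833 CPM and 4283 and 5754 CPM. No embryo or nucellus marker passed the test there, though their levels shifted in opposite directions at 6 and 7 DAP. The embryo markers summed to 55.6 and 480 CPM before and 79.2 and 211 CPM after digestion. The nucellus marker had 6.69 and 15.2 CPM before and 2.26 and 41.4 CPM after. The part of these shifts in the results below was not tested.

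The first comparison asks how the G2/M genes differ between 6 and 7 DAP. Of the 300 members tested, 128 were higher at 7 DAP and 61 lower, called by edgeR's quasi-likelihood test at a Benjamini-Hochberg adjusted p under 0.05 over all 21486 genes tested. The higher members make 42.7% of the list against 28.2% of all genes, and the lower ones 20.3% against 28.0%. The changes were small. The median log2 fold change of the members was 0.08, and the middle 50% lay between -0.10 and 0.23, compared with a median of 0.02 and a middle range of -0.23 to 0.33 for all genes. Past a log2 fold change of 1, 6 members were higher and 2 lower, against 7.4% and 2.19% of all genes. The 3 replicates of each stage did not overlap for 199 members, or 66.3% of those tested, against 61.8% of all genes.

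Genes are named by a fixed rule, and those named beyond it, in the microtubule-associated, kinesin, cytokinesis and receptor kinase groups and OHP2, were chosen after their values were seen. Every adjusted p for a stage difference below is from that edgeR fit, with Benjamini-Hochberg adjustment, and each SE is that of the log2 fold change. Counts by function group below stand beside 28.2% higher and 28.0% lower of all genes, and no group was tested as a set. The split depends on scaling. With library totals in place of TMM factors the log2 fold change of the median gene moved up by 0.115, and 180 members were higher and 41 lower, beside 38.9% and 19.4% of all genes. Higher members were then 81.4% of those called, in place of 67.7%. Of the 128 higher calls, 97 held under every alternative run, and of the 61 lower calls 41 did, or 51 when library totals are set aside. In bulk endosperm, a change in the number of cells of a type and a change in RNA per cell cannot be told apart.

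**Figure D1:**
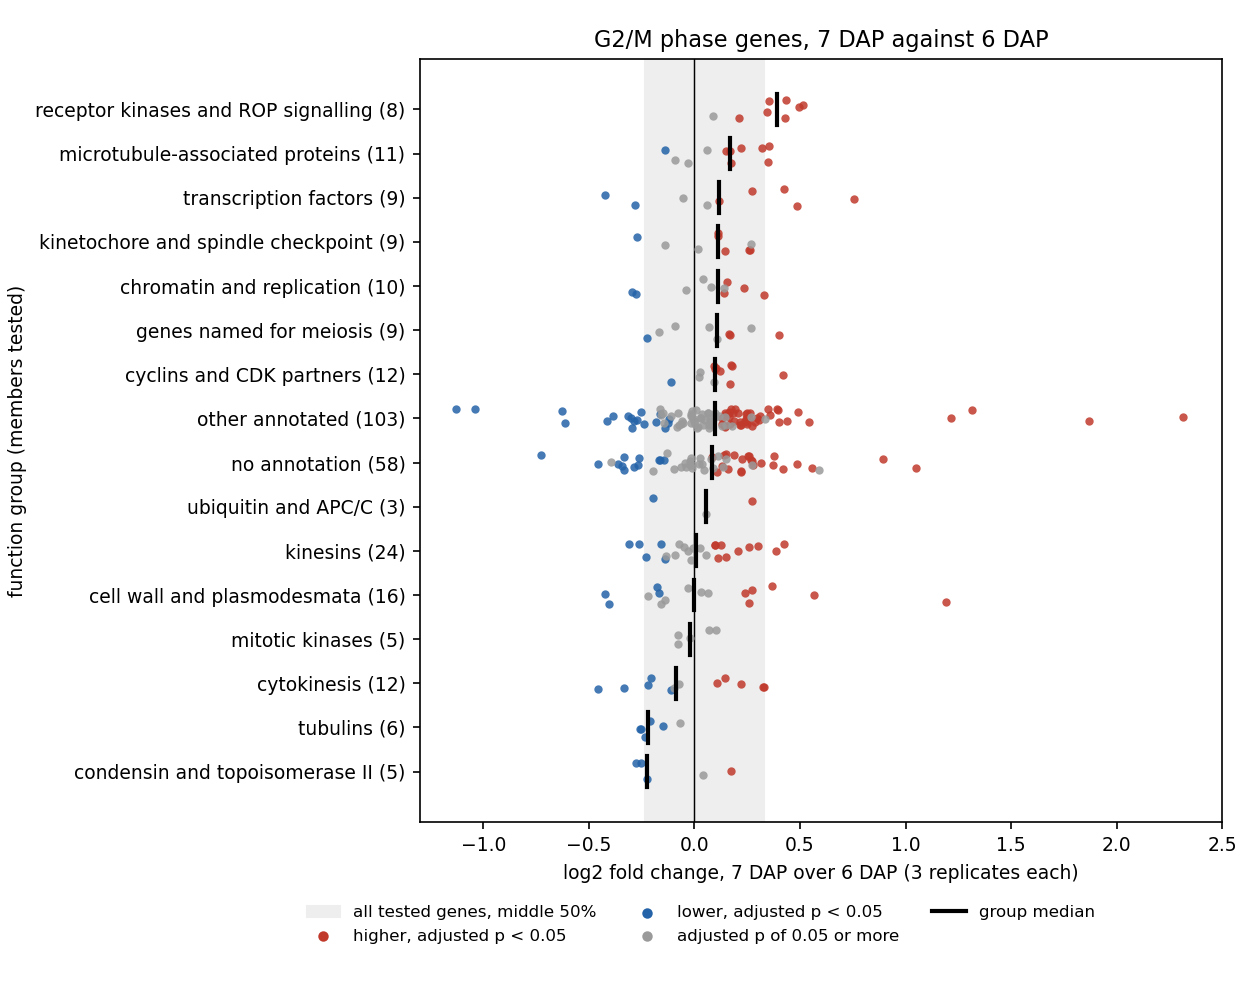
Log2 fold change of each tested G2/M phase gene between 7 and 6 DAP (x axis, 3 replicates per stage), sorted by function group (y axis, members tested in parentheses); red and blue points have an adjusted p under 0.05, black bars are group medians and the grey band is the middle 50% of all tested genes. The receptor kinase and ROP group lies furthest to the right with a median of 0.39, and the tubulins and the condensin group furthest to the left with medians of -0.22.

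The members annotated as transcription factors split into 5 higher and 2 lower of 9 at 7 DAP. Of the 5 rises, 4 were called under every alternative. The remaining rise was lost by DESeq2, with relative log expression size factors and with the replicate number as a block. It was also lost without any single 6 DAP replicate and without replicate 3 at 7 DAP. MYB3R-1 (Zm00001d039306), of the family that binds the shared promoter element of mitotic genes, had 62.0, 68.3 and 69.5 CPM in the 3 replicates at 6 DAP and 78.0, 83.7 and 79.0 CPM at 7 DAP. The stages did not overlap (log2 fold change 0.27, SE 0.047, adjusted p = 4.0e-05). SCL28 (Zm00001d045507), a GRAS family factor known in Arabidopsis to control G2/M genes, had 89.1, 83.6 and 68.7 CPM at 6 DAP and 105, 109.7 and 110.1 CPM at 7 DAP (log2 fold change 0.42, SE 0.061, adjusted p = 5.3e-06). Its 6 DAP replicates were spread more widely than those at 7 DAP, and all 3 were below the 7 DAP replicates. The largest rise in the group was that of ICE2 (Zm00001d042263), a helix-loop-helix factor known in Arabidopsis from the cold response, with 46.3 ± 0.942 CPM at 6 DAP and 78.2 ± 1.35 CPM at 7 DAP (SD, n = 3), at log2 fold change 0.76, SE 0.042, adjusted p = 2.7e-12. The largest fall was that of a gene for a putative MYB domain protein (Zm00001d008800), from 53.5 ± 1.03 to 39.9 ± 0.478 CPM (log2 fold change -0.42, SE 0.048, adjusted p = 1.9e-07).

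Of 12 cyclins and CDK partners, 8 were higher at 7 DAP, 1 was lower and 3 did not pass the test, with a group median of 0.10. The rise was largest for cyc5 (Zm00001d008221), with 71.9, 74.2 and 72.5 CPM at 6 DAP and 97.1, 96.9 and 97.7 CPM at 7 DAP. The stages were far apart relative to the spread of the replicates (log2 fold change 0.42, SE 0.037, adjusted p = 4.6e-09). For cyc4 (Zm00001d012560) the levels were 205, 200.0 and 209 CPM at 6 DAP and 224, 236 and 235 CPM at 7 DAP (log2 fold change 0.18, SE 0.029, adjusted p = 2.6e-05). Cyclin1 (Zm00001d010656) and the CDK regulatory subunit 1 (Zm00001d048394), a docking partner of the kinase, rose with log2 fold changes of 0.17 and 0.17. The 4 genes named so far were called under every alternative, and 5 of the 12 were higher by DESeq2. The other 4 that were higher, cyc9 (Zm00001d014756), a Cyclin-B1-4 gene (Zm00001d043164), 1 of the pair of Cyclin-B2-4 genes (Zm00001d036360) and 1 of the pair of Cyclin-A1-1 genes (Zm00001d040381), had log2 fold changes between 0.09 and 0.12 and all lost the call without replicate 1 at 6 DAP, which left 4 of the 12 higher. cyc8 (Zm00001d002662) had 103, 109 and 104 CPM at 6 DAP and 101, 96.6 and 95.5 CPM at 7 DAP (log2 fold change -0.11, SE 0.038, adjusted p = 0.016), and was at 0.0046 with library totals. The call was also lost without replicate 2 at 6 DAP or replicate 2 or 3 at 7 DAP. The second Cyclin-A1-1 gene (Zm00001d009011), the second Cyclin-B2-4 gene (Zm00001d026129) and a putative CDK gene (Zm00001d038109) did not pass, with log2 fold changes of 0.02, 0.09 and 0.03, though the first and second of these passed as higher with library totals, at 0.14 and 0.21, and the Cyclin-B2-4 gene also without replicate 3 at 6 DAP.

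None of the 5 genes grouped as mitotic kinases passed the test in either direction by edgeR, at an unadjusted p under 0.05 or by DESeq2. They are abk1 (Zm00001d039498, an Aurora B kinase of the chromosomal passenger complex), the gene for its INCENP-like scaffold (Zm00001d020851), Aurora-3 (Zm00001d034166), a further Aurora-related gene (Zm00001d008815) and a haspin homolog (Zm00001d006938), the histone kinase that recruits the passenger complex. Their log2 fold changes lay between -0.08 and 0.10, with SEs of 0.042 to 0.073. abk1 had 83.3, 84.6 and 95.8 CPM at 6 DAP and 82.0, 82.9 and 84.6 CPM at 7 DAP, and the stages overlapped. With library totals the haspin homolog and the Aurora-related gene passed as higher. Without replicate 1 at 6 DAP abk1 passed as lower, at a log2 fold change of -0.12, and without replicate 1 at 7 DAP the INCENP-like gene did, at a similar value.

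In the kinetochore and spindle checkpoint group of 9 genes, 5 were higher and 1 lower. MAD2 (Zm00001d025721), which holds back anaphase while kinetochores are unattached, had 91.4, 96.5 and 99.0 CPM at 6 DAP and 116, 114 and 113 CPM at 7 DAP. All 7 DAP replicates were above all 6 DAP replicates (log2 fold change 0.26, SE 0.038, adjusted p = 5.2e-06). Shugoshin-1 (Zm00001d032805), the protector of centromeric cohesion, had 41.3, 42.9 and 45.4 CPM at 6 DAP and 52.1, 54.0 and 49.5 CPM at 7 DAP (log2 fold change 0.27, SE 0.053, adjusted p = 2.2e-04). The checkpoint gene bub3 (Zm00001d045389) rose with a log2 fold change of 0.11. The checkpoint gene BUBR1 (Zm00001d015863) and a centromere protein-like gene (Zm00001d007200) were higher by 0.11 and 0.14 on the log2 scale, and both lost the call without replicate 1 at 6 DAP. BUBR1 also lost it by DESeq2 (adjusted p = 0.13), which called 4 of the 9 genes higher. Its call was lost as well without replicate 2 at 6 DAP or replicate 1 or 3 at 7 DAP. CENP-C (Zm00001d044220), which ties the kinetochore to centromeric chromatin, was the member that fell, with 38.7, 38.8 and 39.7 CPM at 6 DAP and 31.0, 33.0 and 32.9 CPM at 7 DAP (log2 fold change -0.27, SE 0.056, adjusted p = 3.5e-04). The centromeric histone cenH3 (Zm00001d038533) had 67.6, 70.7 and 65.7 CPM at 6 DAP and 69.2, 71.4 and 66.0 CPM at 7 DAP, fully overlapping. A Mad3/BUB1-region gene (Zm00001d023279) and an NDC80 complex gene (Zm00001d041956) did not pass, with log2 fold changes of -0.14 and 0.27, though the latter passed as higher with no filter (adjusted p = 0.017), with the replicate number as a block (adjusted p = 0.022), with library totals (0.38, adjusted p = 0.011) and without replicate 3 at 6 DAP or replicate 2 at 7 DAP. The Mad3/BUB1-region gene passed as lower without replicate 1 at 6 DAP.

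Of 5 condensin and topoisomerase genes, 3 were lower, 1 was higher and 1 did not pass the test. Condensin compacts mitotic chromosomes, and topoisomerase II untangles their DNA. The 3 members annotated for condensin or as a structural maintenance of chromosomes protein were lower at 7 DAP under every alternative. For Zm00001d038583 the annotation gives the protein family and names no complex. SMC2-2 (Zm00001d042468) had 173, 169.8 and 173 CPM at 6 DAP and 152, 145 and 145 CPM at 7 DAP (log2 fold change -0.22, SE 0.031, adjusted p = 3.0e-06). A second structural maintenance of chromosomes gene (Zm00001d038583) and condensin complex subunit 2 (Zm00001d044581) fell with log2 fold changes of -0.28 and -0.25. Of the pair of topoisomerase 2 genes, Zm00001d051542 rose, with 394 ± 4.98 CPM at 6 DAP and 444 ± 10.8 CPM at 7 DAP (log2 fold change 0.17, SE 0.024, adjusted p = 3.5e-06), and Zm00001d017720 did not pass, at 0.04, and passed as higher with library totals, at 0.16.

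The tubulins, the building blocks of microtubules, were lower in 5 of 6 cases and in none higher, whether by edgeR, at an unadjusted p under 0.05 or by DESeq2. tua1 (Zm00001d033850, alpha tubulin) had 2993, 3017 and 3069.7 CPM at 6 DAP and 2561, 2560.1 and 2596 CPM at 7 DAP. The replicates of a stage lay close together and the stages apart (log2 fold change -0.23, SE 0.015, adjusted p = 2.0e-11). The alpha-4 chain (Zm00001d013367) and tua3 (Zm00001d013159) fell with log2 fold changes of -0.25 and -0.21, and the beta tubulins tubb6 (Zm00001d012556) and tub1 (Zm00001d027295) with -0.26 and -0.15. tub2 (Zm00001d010275) did not pass, at -0.07, though it passed as lower without replicate 3 at 7 DAP. With library totals 4 of the 6 were still lower and tub1 was not called.

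Among 11 microtubule-associated proteins, 7 were higher and 1 lower, a different balance from the tubulins they bind, though the difference between the groups was not tested. The list holds 5 genes annotated for TPX2, a spindle assembly factor that activates Aurora kinase. The largest rise was in 1 of them (Zm00001d048104), with 32.9, 31.2 and 30.7 CPM at 6 DAP and 39.4, 40.9 and 41.1 CPM at 7 DAP (log2 fold change 0.35, SE 0.057, adjusted p = 2.0e-05). The stages did not overlap. Zm00001d006456 had a log2 fold change of 0.35. Zm00001d021583 and Zm00001d028195 rose by 0.17 and 0.15 on the log2 scale. The call of Zm00001d028195 was lost by DESeq2 (adjusted p = 0.092) and without replicate 2 at 7 DAP. Zm00001d023630 did not pass, at -0.09, though it passed as lower without replicate 3 at 6 DAP or replicate 1 at 7 DAP. Of the EB1 proteins, which track growing microtubule ends, EB1C (Zm00001d032565) rose by 0.17 on the log2 scale and EB1B (Zm00001d002115) had 121, 119 and 122 CPM at 6 DAP and 112, 108 and 108 CPM at 7 DAP (log2 fold change -0.14, SE 0.034, adjusted p = 0.0015). The EB1B call was lost with library totals, at -0.02.

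The 24 kinesins, motor proteins of the spindle and phragmoplast, split into 10 higher and 5 lower, with a median of 0.01. Of all genes, 28.2% were higher and 28.0% lower. The largest rise was in KP1 (Zm00001d003368), with 38.9, 39.9 and 45.2 CPM at 6 DAP and 52.0, 56.3 and 57.4 CPM at 7 DAP (log2 fold change 0.42, SE 0.058, adjusted p = 2.9e-06). The largest fall was in KIN-7N (Zm00001d052615), with 66.3, 71.0 and 73.6 CPM at 6 DAP and 55.0, 59.4 and 55.2 CPM at 7 DAP (log2 fold change -0.31, SE 0.048, adjusted p = 1.4e-05). In both genes the stages did not overlap. In all, 7 of the 10 rises and 3 of the 5 falls were called under every alternative. The KIN-12 kinesins, known from the phragmoplast in Arabidopsis, differed among themselves. KIN-12C (Zm00001d022276) and KIN-12D (Zm00001d041353) rose by 0.39 and 0.26 on the log2 scale, KIN-12A (Zm00001d025149) was lower with a log2 fold change of -0.16, a call lost with library totals at -0.04, and KIN-12E (Zm00001d034030) did not pass, at -0.05.

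In the exit from mitosis, CDC27 (Zm00001d042523), a core subunit of the APC/C, had 83.7, 83.6 and 87.2 CPM at 6 DAP and 75.3, 73.8 and 73.1 CPM at 7 DAP (log2 fold change -0.20, SE 0.038, adjusted p = 1.9e-04). The call was lost with library totals, at -0.08. A fizzy-related gene (Zm00001d041957), of the APC/C activators, did not pass, at 0.06, and passed as higher with library totals, at 0.17. A putative ubiquitin-conjugating enzyme (Zm00001d046890) rose, with 123 ± 3.29 CPM at 6 DAP and 148 ± 4.67 CPM at 7 DAP (log2 fold change 0.27, SE 0.035, adjusted p = 9.0e-07). A gene annotated as ubiquitin-conjugating enzyme E2 20 (Zm00001d008260) was at 0 counts in all 10 libraries.

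The 12 cytokinesis genes divided evenly, 5 higher and 5 lower, beside 28.2% and 28.0% of all genes. KNOLLE (Zm00001d013323), the syntaxin of vesicle fusion at the cell plate in Arabidopsis, had 98.4, 91.5 and 88.3 CPM at 6 DAP and 118, 113 and 119 CPM at 7 DAP (log2 fold change 0.33, SE 0.041, adjusted p = 7.7e-07). All 3 genes annotated as NPK1-related kinase 2, named after a tobacco kinase of phragmoplast growth, were higher, with log2 fold changes of 0.11 (Zm00001d005696), 0.14 (Zm00001d020355) and 0.22 (Zm00001d050329). The last was called under every alternative. Zm00001d005696 lost the call by DESeq2 (adjusted p = 0.14) and without replicate 2 at 6 DAP or replicate 1 or 3 at 7 DAP, and Zm00001d020355 by DESeq2 (adjusted p = 0.069) and without replicate 1 at 6 DAP. The 4 dynamin-type genes, GTPases of membrane remodelling, were lower, 3 of them under every alternative. Dynamin-related protein 1A (Zm00001d038955) had 201, 203 and 217 CPM at 6 DAP and 151, 152 and 149 CPM at 7 DAP (log2 fold change -0.46, SE 0.032, adjusted p = 1.3e-10). The pair of dynamin-related protein 5A genes (Zm00001d043451 and Zm00001d012752) and dynamin-2A (Zm00001d044757) fell with log2 fold changes of -0.33, -0.22 and -0.21. The call of Zm00001d012752 was lost with library totals, at -0.11, and without replicate 3 at 7 DAP, at -0.16. In each of these settings 3 of the 12 were lower, and DESeq2 called 3 higher. The pair annotated as RUNKEL, a phragmoplast kinase in Arabidopsis, was the one pair of members with the same annotation text and opposite calls. Zm00001d040305 had 31.4, 32.2 and 33.8 CPM at 6 DAP and 38.6, 43.0 and 39.7 CPM at 7 DAP (log2 fold change 0.32, SE 0.06, adjusted p = 1.1e-04). Zm00001d008321 had 95.6, 101 and 101 CPM at 6 DAP and 94.6, 90.8 and 90.0 CPM at 7 DAP (log2 fold change -0.11, SE 0.038, adjusted p = 0.017). Zm00001d008321 was at 0.0035 with library totals, and it lost the call without replicate 2 at 6 DAP or replicate 2 or 3 at 7 DAP.

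**Figure D2:**
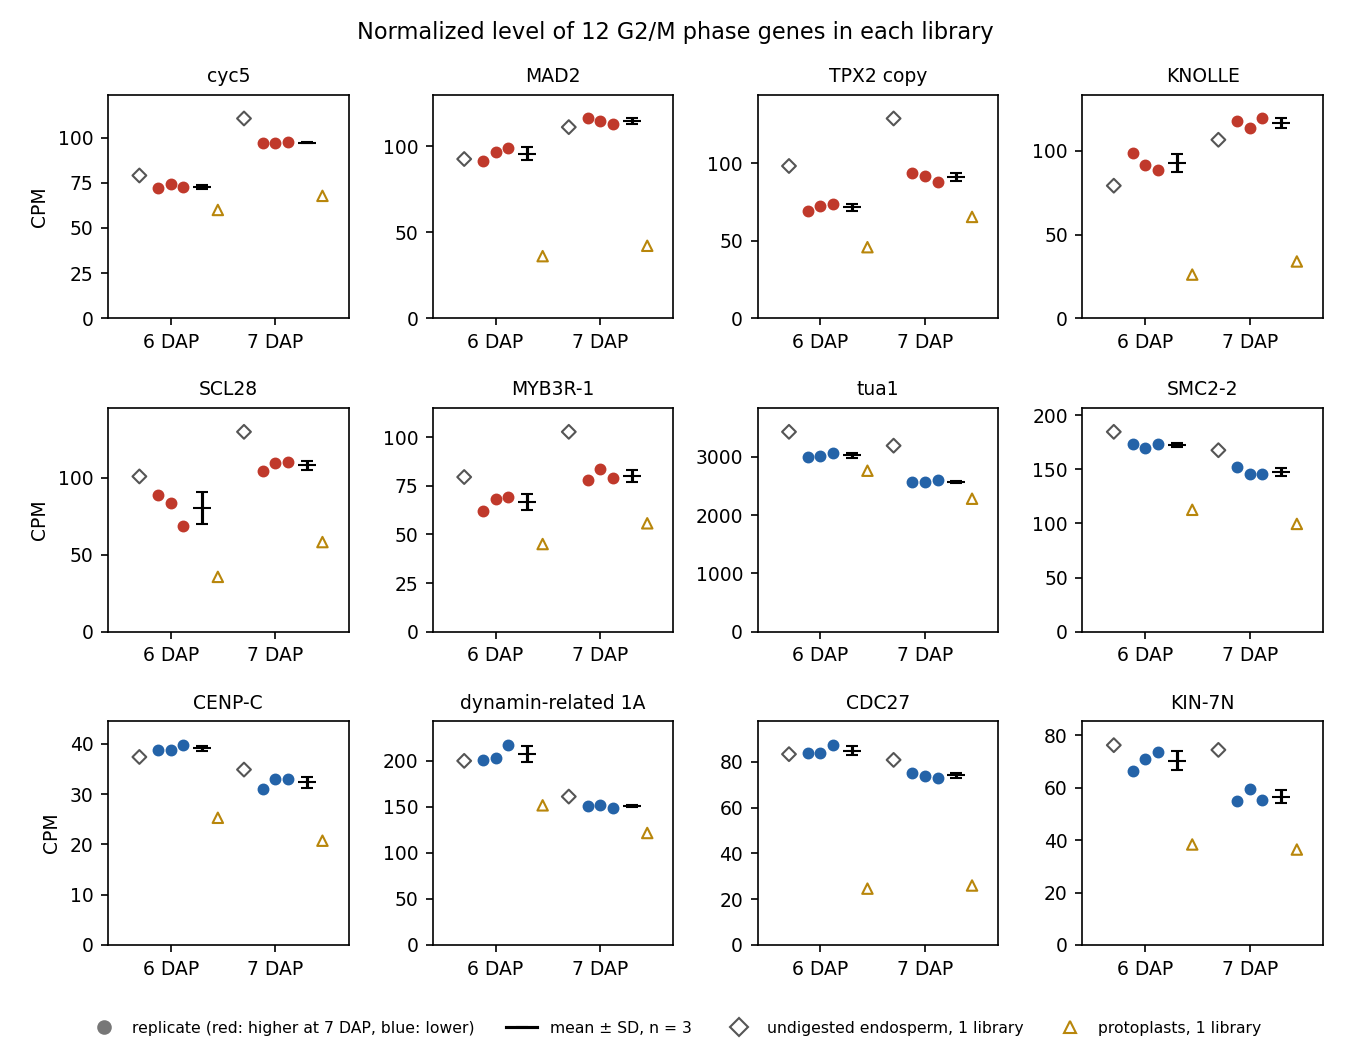
Level in CPM (y axis, from 0) of 12 G2/M phase genes at 6 and 7 DAP (x axis): filled circles are the 3 stage replicates (TMM-scaled, red where higher and blue where lower at 7 DAP), the bar beside them is their mean ± SD (n = 3), diamonds are the undigested libraries and triangles the protoplast libraries (1 each, scaled by library totals). In cyc5 the replicates lie at 71.9 to 74.2 CPM at 6 DAP and 96.9 to 97.7 CPM at 7 DAP, and the protoplast points lie below the undigested points in all 12 genes.

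The group with the highest median was that of receptor kinases and ROP signalling, in which small GTPases and their regulators guide cell polarity. Of its 8 tested members 7 were higher and none was lower, by edgeR at an adjusted or unadjusted p under 0.05 or by DESeq2, and the 7 calls held under every alternative. ROP guanine nucleotide exchange factor 7 (Zm00001d042861), an activator of ROP GTPases, had 10.4, 6.91 and 8.08 CPM at 6 DAP and 12.6, 13.0 and 11.3 CPM at 7 DAP (log2 fold change 0.51, SE 0.12, adjusted p = 0.0015). The GTPase rop6 (Zm00001d038688) had a log2 fold change of 0.35, and a pair of lectin-domain receptor kinase genes (Zm00001d037371 and Zm00001d035476) had 0.49 and 0.44. The ninth member, a probable receptor-like kinase gene (Zm00001d047990), had 16 counts over the 6 stage libraries and was not tested.

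The 16 genes of the cell wall and plasmodesmata had 6 higher and 4 lower members, beside 28.2% and 28.0% of all genes. With library totals they had 9 and 2, beside 38.9% and 19.4%. A pectinesterase gene (Zm00001d002726), whose product modifies wall pectin, had 4.69, 4.61 and 4.1 CPM at 6 DAP and 11.2, 9.49 and 10.1 CPM at 7 DAP (log2 fold change 1.19, SE 0.13, adjusted p = 7.8e-08). Endoglucanase 8 (Zm00001d017949) rose with a log2 fold change of 0.56. A glucan endo-1,3-beta-glucosidase 3 gene (Zm00001d048055), of the enzymes that break down callose, had 415, 412 and 407 CPM at 6 DAP and 301, 311 and 307 CPM at 7 DAP (log2 fold change -0.43, SE 0.024, adjusted p = 2.5e-12).

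Of 10 chromatin and replication genes, 4 were higher and 2 lower, beside 28.2% and 28.0% of all genes. With library totals 7 were higher and 2 lower, beside 38.9% and 19.4%. HMG9, whose primers are given above, had 195, 193 and 200.4 CPM at 6 DAP and 225, 237 and 229 CPM at 7 DAP (log2 fold change 0.23, SE 0.029, adjusted p = 7.7e-07). A DNA polymerase delta subunit 4 gene (Zm00001d024509) rose with a log2 fold change of 0.33. A CDT1-like gene (Zm00001d032621), of the family that licenses replication origins, had 43.5 ± 2.52 CPM at 6 DAP and 35.5 ± 2.79 CPM at 7 DAP (log2 fold change -0.30, SE 0.063, adjusted p = 4.2e-04). The 9 genes named for meiosis had 3 higher and 1 lower, beside the same 28.2% and 28.0% of all genes. JASON (Zm00001d013150), known in Arabidopsis for spindle orientation in male meiosis, had 29.0, 29.1 and 29.2 CPM at 6 DAP and 35.3, 40.9 and 38.9 CPM at 7 DAP (log2 fold change 0.40, SE 0.063, adjusted p = 1.4e-05). XRI1 (Zm00001d025182), an Arabidopsis gene of meiosis and DNA repair, fell from 42.9 ± 2.18 to 36.7 ± 1.53 CPM, a call lost with library totals.

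The largest stage changes of the list lay outside the mitotic machinery. gpc4 (Zm00001d017121), a glyceraldehyde-3-phosphate dehydrogenase of glycolysis, had 2665, 2689 and 2826 CPM at 6 DAP and 1250.4, 1254 and 1239.8 CPM at 7 DAP (log2 fold change -1.13, SE 0.019, adjusted p = 4.3e-21). It was followed among the falls by a gene annotated as evolutionarily conserved C-terminal region 8 (Zm00001d043860), from 9.91 ± 0.829 to 4.87 ± 0.875 CPM, an unannotated gene (Zm00001d040204), from 91.6 ± 1.56 to 55.3 ± 0.892 CPM, and genes for a chaperonin (Zm00001d029263) and an RNA-binding protein (Zm00001d019086), with log2 fold changes of -0.63 and -0.61. The largest rise at a mean level of at least 5 CPM was that of nucleobase-ascorbate transporter 6 (Zm00001d012935), with 17.4, 18.0 and 15.6 CPM at 6 DAP and 39.0, 41.0 and 38.3 CPM at 7 DAP (log2 fold change 1.21, SE 0.068, adjusted p = 3.2e-12). An unannotated gene (Zm00001d013502) rose from 3.98 ± 0.55 to 7.28 ± 1.05 CPM. 1 member passed the study's stricter limit of a log2 fold change over 2, a gene named OHP2 (Zm00001d011256) with 45 counts over the 6 libraries and a log2 fold change of 2.31 (SE 0.64), and no member passed it downwards by edgeR, at an unadjusted p under 0.05 or by DESeq2. Of all genes, 2.54% passed that limit upwards and 0.451% downwards, and the count of members past it was 0 to 2 over the alternatives.

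The calls were also counted by the source that put a member on the list. Of the 123 tested members from the maize anther source alone, 34 were higher and 38 lower at 7 DAP, with a median log2 fold change of -0.01. Of the 103 from the shoot apex source alone, 56 were higher and 15 lower, with a median of 0.16. Of the 64 named by both sources, 34 were higher and 5 lower, with a median of 0.12. Of all genes tested, 28.2% were higher and 28.0% lower, and the shares of the anther source alone were near these. With library totals the counts by source, in the same order, were 53 and 23, 75 and 12, and 48 and 3. Of all genes, 38.9% were then higher and 19.4% lower. The difference between sources was not tested. All 6 tubulins, 4 of the 5 condensin and topoisomerase genes and 3 of the 4 dynamin-type genes rest on the anther source alone, and 8 of the 9 receptor kinase and ROP genes on the shoot apex source alone.

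The single undigested libraries come from other samples than the stage replicates, and most members called between stages moved the same way in them. Of 126 members higher at 7 DAP and measured at a mean of at least 1 CPM in the protoplast experiment, 124 were higher in the 7 DAP than in the 6 DAP undigested library, and of 61 lower members 55 were lower. The same shares over all called genes were 98.1% and 90.1%, beside 98.4% and 90.2% for the members, so this is no more than for genes in general. Over all 296 members at that level, 74.7% were higher in the 7 DAP undigested library, against 60.0% of all 20591 genes, and with TMM-scaled CPM these shares were 65.2% and 52.0%. Past a difference of 1 there were 2 members up and none down by these values, against 4.15% and 1.1% of all genes.

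The S phase genes of the same table, which mark cells replicating their DNA, were mostly lower at 7 DAP in the same fit. Of 136 tested, 7 were higher and 116 lower at 7 DAP, beside 28.2% and 28.0% of all genes. Their median log2 fold change was -0.42. Their summed level was 22900 to 23094 CPM at 6 DAP and 16531 to 16687 CPM at 7 DAP, while that of the G2/M genes was 46810 to 47019 CPM at 6 DAP and 49194 to 49763 CPM at 7 DAP. Without the 6 tubulins the G2/M sum was 37457 to 37619 CPM at 6 DAP and 41207 to 41687 CPM at 7 DAP. The single protoplast libraries did not show the S phase fall. In them 65.4% of the 136 S phase genes were higher at 7 DAP, against 47.3% of all genes. Between the single undigested libraries 11.8% were higher, against 60.0% of all genes. The S phase sum was 14283 and 16569 CPM in protoplasts and 21762 and 16812 CPM in undigested endosperm, at 6 and 7 DAP. No test was made of the difference between the lists.

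The second comparison asks what digestion into protoplasts does to the G2/M genes. They were lower in protoplasts at both stages. Of 299 members tested, 117 were lower by more than 2-fold and 9 higher, at an adjusted p under 0.05 in edgeR's quasi-likelihood test with stage as a covariate. These are 39.1% and 3.01% of the list, against 7.37% and 18.4% of all 22799 genes tested. Past a log2 fold change of 2, 29 members were lower and 4 higher, beside 2.06% and 11.0% of all genes. At any size, 206 members were lower and 11 higher, or 68.9% and 3.68%, against 16.3% and 23.0% of all genes. The median log2 fold change of the members was -0.86, and that of all genes -0.03. The groups did not overlap for 264 members, 88.3% of those tested, against 71.6% of all genes. In this test the 6 and 7 DAP libraries of a kind stand in for replicates, with 1 residual degree of freedom. Without the 6 DAP protoplast library, in a fit without the covariate, 77 were lower and 8 higher. Of the 117 lower calls 69 held under every alternative other than the fold limits, and of the 9 higher calls 7 did.

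**Figure D3:**
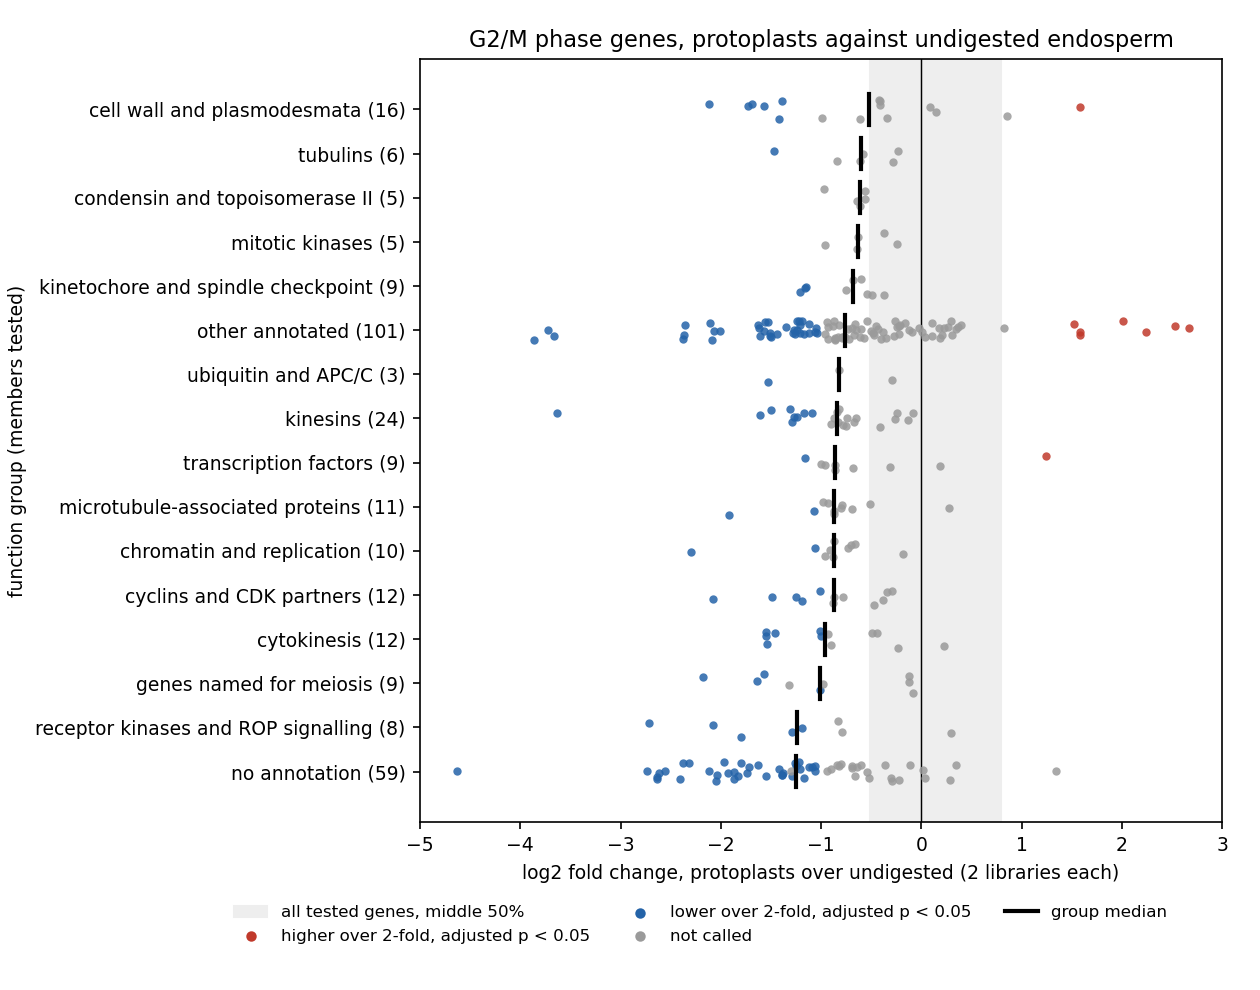
Log2 fold change of each tested G2/M phase gene between protoplasts and undigested endosperm (x axis, 2 libraries on each side), by function group (y axis, members tested in parentheses); coloured points are over 2-fold with an adjusted p under 0.05, black bars are group medians and the grey band is the middle 50% of all tested genes. All 16 group medians are below 0, from -1.25 for members with no annotation to -0.52 for the cell wall group.

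Every adjusted p of this comparison is from the same edgeR fit. Group counts past 2-fold stand beside 7.37% lower and 18.4% higher of all genes. Of the 106 tested members in the groups of the mitotic machinery (all groups of defined role but transcription factors, signalling and wall), 33 were lower by more than 2-fold and none higher, by edgeR at an adjusted or unadjusted p under 0.05 or by DESeq2. krp13 (Zm00001d033112), a kinesin, had the largest fall among them. Its level was 135 and 164 CPM in undigested endosperm at 6 and 7 DAP and 9.08 and 12.5 CPM in protoplasts, 12.4-fold lower (log2 fold change -3.64, SE 0.16, adjusted p = 4.6e-04). Its stage change was not called, at -0.01, and passed as higher at 0.11 with library totals. In all, 9 of 24 kinesins were lower, and krp2 (Zm00001d045554) and krp17 (Zm00001d027337) had log2 fold changes of -1.61 and -1.31.

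Among the cyclins, 5 of 12 were lower. Cyclin1 (Zm00001d010656) had 101 and 117 CPM in undigested endosperm and 18.9 and 27.8 CPM in protoplasts (log2 fold change -2.07, SE 0.17, adjusted p = 0.0014), and a Cyclin-A1-1 gene (Zm00001d009011) had 82.2 and 90.7 CPM and 25.8 and 29.0 CPM (log2 fold change -1.49, SE 0.14, adjusted p = 0.0021). Of the 5 lower calls only these 2 held under every alternative other than the fold limits, and of the cyclins only cyclin1 also passed a log2 fold change limit of 2. cyc5, with the largest stage rise of the group, had 79.0 and 111 CPM in undigested endosperm and 60.0 and 67.8 CPM in protoplasts, and did not pass (log2 fold change -0.38, SE 0.13, adjusted p = 0.079).

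None of the 5 mitotic kinases and none of the 5 condensin and topoisomerase genes passed in edgeR's test with the 2-fold limit, at an unadjusted p under 0.05 or by DESeq2 either, and 1 of each group did with library totals, as did 1 of the condensin and topoisomerase genes without the 6 DAP undigested library. At any size 3 and 5 of them were lower at an adjusted p under 0.05. abk1 had 84.3 and 92.0 CPM in undigested endosperm and 65.9 and 66.1 CPM in protoplasts (log2 fold change -0.25, SE 0.13, adjusted p = 0.18). The larger topoisomerase 2 change was in Zm00001d051542, with 438 and 534 CPM and 227 and 212 CPM (log2 fold change -0.97, SE 0.15, adjusted p = 0.0079).

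In the kinetochore group MAD2, Shugoshin-1 and the NDC80 complex gene were lower. MAD2 had 92.5 and 111 CPM in undigested endosperm and 36.1 and 42.1 CPM in protoplasts (log2 fold change -1.21, SE 0.13, adjusted p = 0.0031). All 3 calls were lost without the 6 DAP protoplast library, and that of the NDC80 gene also without the 7 DAP one. CDC27 had 83.3 and 80.8 CPM in undigested endosperm and 24.6 and 26.0 CPM in protoplasts, and was called in every alternative other than the stricter fold limit (log2 fold change -1.53, SE 0.14, adjusted p = 0.0022).

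Of the tubulins, tub1 was lower, with 851 and 817 CPM in undigested endosperm and 261 and 276 CPM in protoplasts (log2 fold change -1.47, SE 0.14, adjusted p = 0.0024), a call lost without either protoplast library. tua1 had 3429.5 and 3192 CPM in undigested endosperm and 2762 and 2281 CPM in protoplasts, and did not pass (log2 fold change -0.23, SE 0.13, adjusted p = 0.23). The TPX2 family gene Zm00001d023630, which did not change with stage beyond the threshold, had 70.8 and 75.6 CPM and 15.7 and 18.7 CPM (log2 fold change -1.92, SE 0.15, adjusted p = 0.0014).

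Of 12 cytokinesis genes, 6 were lower in protoplasts. KNOLLE had 79.2 and 107 CPM in undigested endosperm and 26.1 and 33.9 CPM in protoplasts (log2 fold change -1.46, SE 0.13, adjusted p = 0.002). A dynamin-related protein 5A gene (Zm00001d043451) had 58.1 and 52.6 CPM and 19.0 and 14.9 CPM (log2 fold change -1.55, SE 0.15, adjusted p = 0.0022), so KNOLLE, which rose with stage, and this gene, which fell, were both lower. Both RUNKEL genes were lower as well, with log2 fold changes of -1.55 (Zm00001d040305) and -1.0 (Zm00001d008321), the latter at the 2-fold limit and lost with relative log expression (RLE) size factors, with either other count filter, and without either protoplast library or the 6 DAP undigested one.

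Of the genes named for meiosis, 4 of 9 were lower, led by a POLLENLESS 3-like gene (Zm00001d006237) with 40.0 and 48.1 CPM in undigested endosperm and 6.37 and 11.5 CPM in protoplasts (log2 fold change -2.18, SE 0.22, adjusted p = 0.0027). Among the chromatin genes the largest fall was in sdg122 (Zm00001d027838), a SET domain gene, with 17.4 and 18.1 CPM and 2.67 and 3.84 CPM (log2 fold change -2.29, SE 0.24, adjusted p = 0.003). HMG9 had 230.0 and 277 CPM in undigested endosperm and 105 and 136 CPM in protoplasts (log2 fold change -0.91, SE 0.13, adjusted p = 0.0075), within the 2-fold limit, and past it with library totals at -1.08.

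Falls of like size were seen outside the machinery. A gene annotated as meristematic receptor-like kinase (Zm00001d052323), which had the largest fall of the groups with a role after krp13, had 161 and 197 CPM in undigested endosperm and 18.9 and 30.5 CPM in protoplasts (log2 fold change -2.72, SE 0.18, adjusted p = 9.2e-04). A putative cellulose synthase-like gene (Zm00001d023810) had 307 and 410.1 CPM and 56.7 and 93.2 CPM (log2 fold change -2.12, SE 0.16, adjusted p = 0.0012). SCL28 had 101 and 129.8 CPM in undigested endosperm and 35.6 and 58.2 CPM in protoplasts (log2 fold change -1.16, SE 0.16, adjusted p = 0.0065), a call lost without the 6 DAP protoplast library or the 7 DAP undigested library. A putative membrane lipoprotein gene (Zm00001d027883), with 17.1 and 21.1 CPM and 1.09 and 1.23 CPM, was 14.6-fold lower, and a gene annotated as OSJNBb0022F23.8 protein (Zm00001d017043), with 21.4 and 26.6 CPM and 1.58 and 1.62 CPM, was 13.3-fold lower. After krp13, the next member named by the rule was an unannotated gene (Zm00001d014319), with 106 and 57.5 CPM and 7.95 and 13.3 CPM (log2 fold change -2.74, SE 0.44, adjusted p = 0.0098). The largest fall of the list, a log2 fold change of -4.63, was in an unannotated member outside that rule. Members with no annotation had the lowest median of any group, at -1.25, and 36 of 59 were lower.

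The 9 members that were higher in protoplasts were all outside the machinery. Those named here were picked by the fixed rule, which asks for a mean of at least 5 CPM. The largest upward log2 fold change of the list, 2.66, was in a member outside that rule. The gene for an E3 ubiquitin ligase related to BIG BROTHER (Zm00001d053212) had 24.6 and 25.1 CPM in undigested endosperm and 123 and 132 CPM in protoplasts (log2 fold change 2.52, SE 0.14, adjusted p = 6.5e-04). A calmodulin-binding protein-related gene (Zm00001d038062) had 15.0 and 18.7 CPM and 62.5 and 80.0 CPM (log2 fold change 2.24, SE 0.15, adjusted p = 9.2e-04), and an HXXXD-type acyltransferase gene (Zm00001d039535) had 86.0 and 84.5 CPM and 295 and 317 CPM (log2 fold change 2.01, SE 0.14, adjusted p = 0.0011). In all 3 the lower protoplast library was above the higher undigested library. Probable anion transporter 6 (Zm00001d021396) and a gene annotated as a transcription factor by its Arabidopsis match (Zm00001d014703) were each higher with log2 fold changes of 1.58 and 1.58. The MYB domain gene Zm00001d008800, which fell with stage, had 57.6 and 51.8 CPM in undigested endosperm and 109.7 and 120.0 CPM in protoplasts (log2 fold change 1.24, SE 0.15, adjusted p = 0.0046). GALT4 (Zm00001d034508), a galactosyltransferase of wall proteins, had 33.0 and 34.5 CPM and 61.1 and 131 CPM (log2 fold change 1.58, SE 0.29, adjusted p = 0.015), with the larger rise at 7 DAP.

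**Figure D4:**
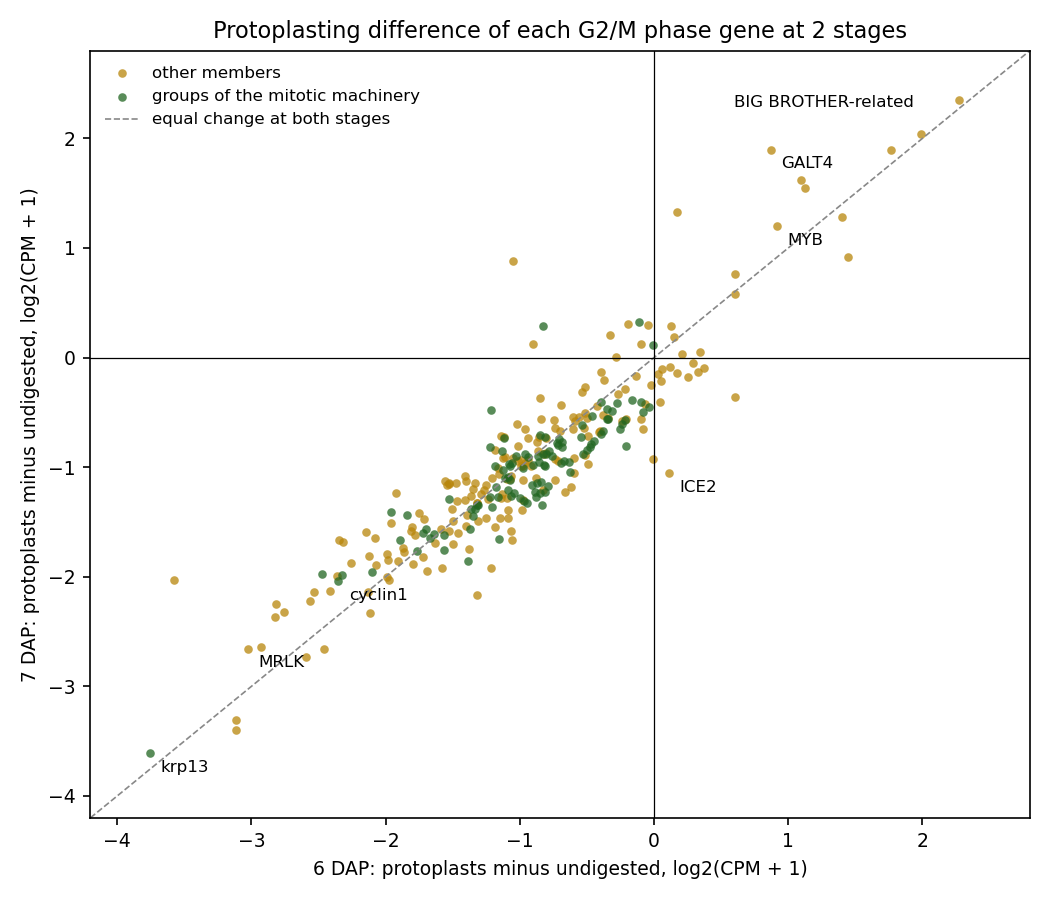
Difference between protoplasts and undigested endosperm in log2(CPM + 1) for each G2/M phase gene at 6 DAP (x axis) and at 7 DAP (y axis), 1 library per sample; green points are members of the mitotic machinery groups, ochre points the other members, and the dashed line marks equal change. Most points lie below 0 on both axes, with krp13 near -3.76 and -3.61, and ICE2 is at 0.11 and -1.05.

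Stage by stage the pattern was alike, given as values since each sample is 1 library. The median difference of the members was -0.97 at 6 DAP and -0.99 at 7 DAP on the log2(CPM + 1) scale, where that of all genes was -0.11 and -0.25. Lower by more than 1 were 141 of 296 members at 6 DAP, where 9.12% of all genes were, and 146 at 7 DAP, where 12.7% were, while 7 and 9 members were higher by more than 1, against 15.6% and 15.7%. At both stages at once 122 members were lower by more than 1, or 41.2%, against 6.21% of all genes. The S phase genes had 30 of 136 lower and 4 higher in the test across both stages, with a median log2 fold change of -0.41. Their medians by stage were -0.78 at 6 DAP and -0.45 at 7 DAP.

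The size of the protoplasting change bore little relation to the stage change, which was measured in other libraries. Across 298 members tested in both, Pearson's r was 0.05 and Spearman's rho -0.06, a description across genes that are not independent. The median protoplasting change was -0.88 for members higher at 7 DAP, -0.67 for those lower and -0.87 for those not called. Between the protoplast libraries of 7 and 6 DAP the median member differed by 0.11 on the log2(CPM + 1) scale, beside 0.17 between the undigested libraries, an order that turned with TMM-scaled CPM, at 0.12 and 0.097. In the protoplast libraries 65.5% of members were higher at 7 DAP, against 47.3% of all genes (66.2% and 49.0% with TMM-scaled CPM), and past a difference of 1 were 6 members up and 1 down, against 2.63% and 0.311%. Of the members higher at 7 DAP, 109 of 126 were higher in the 7 DAP protoplast library, 86.5% against 66.9% of all genes so called, and of the lower ones 42 of 61 were lower, 68.9% against 77.0%. ICE2 had 44.2 and 84.8 CPM in the undigested libraries and 47.7 and 40.4 CPM in the protoplast libraries of 6 and 7 DAP, so that the rise with stage was seen in the former.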

How the data were processed

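Per the labels and methods, the authors trimmed reads with Trimmomatic 0.39, aligned them to the B73 version 4 genome with STAR and counted uniquely mapped pairs per gene with featureCounts 2.0.1. The deposited values are raw counts for 45953 genes in a table of 6 stage libraries and a table of 4 protoplast libraries, which were tested apart. The labels and the methods name different library kits. Both tables hold integer counts with no normalization.

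Counts were tested in R 4.3.3 with edgeR 4.0.16 (TMM factors, filterByExpr, quasi-likelihood test, Benjamini-Hochberg adjustment over all tested genes), 3 against 3 between stages and 2 against 2 with stage as a covariate between protoplasts and undigested endosperm, where a log2 fold change over 1 was also required. The fits had a biological coefficient of variation of 4.14% and 19%. The study's own limit of 2 and DESeq2 1.42.0 (size factors of its own) were alternatives, as were RLE factors, library totals, other count filters, a replicate block and leaving out each library. Stage changes between single libraries are differences of log2(CPM + 1) for genes with a mean of at least 1 CPM, with no test. In the stage fit p-values measure the spread between pools of endosperm. The protoplast fit has no replicate pools. Its p-values rest on how far the digestion change differs between the stages, with the spread pooled across genes. CPM has counting error of its own in members of few counts.

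The test script was tested on simulated data with known changes. The simulated spread was near the 4.14% of the stage fit and far below the 19% of the protoplast fit. How the protoplast test performs at its real spread was therefore not tested. Replicates differed by more than sampling noise (chi-square per degree of freedom 1.67 to 3.58), so each was counted.

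Members and lists were chosen with earlier results of these data known. Function groups come from annotation text in the study's cell cycle table. The genes named are all members of the cyclin, mitotic kinase, kinetochore, ubiquitin, condensin and tubulin groups, MYB3R-1, SCL28 and HMG9. In other groups they are the largest rise and fall among called members at a mean of at least 5 CPM. Over all members they are the 5 largest rises and falls of each comparison. These 5 were taken among called members at that level whose groups did not overlap. Pairs of equal annotation and opposite calls were named as well. Not tested for low counts were 4 members between stages and 5 in protoplasts. No member identifier matched the RefSeq table, so no promoter or protein sequence was used.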

Additional observations from a re-analysis of the deposited data

Results flagged for a closer look

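For 4 of 296 members the change from 6 to 7 DAP had one sign in the undigested libraries and the other sign in the protoplast libraries, each over 0.3 on the log2(CPM + 1) scale. Among all 20591 genes at that level 913 did so. Each value is a difference between single libraries, so the difference was not tested, and 89 members had opposite signs at any size, as did 8174 of all genes. Myosin-2 (Zm00001d006593), an actin motor, had 97.4 and 127 CPM in undigested endosperm and 38.4 and 27.4 CPM in protoplasts at 6 and 7 DAP, and its stage change was lower in protoplasts by a difference of -0.85. An unannotated gene (Zm00001d014319) had 106 and 57.5 CPM and 7.95 and 13.3 CPM, a difference between the stage changes of 1.55. A second unannotated gene (Zm00001d041889) had 219.9 and 301 CPM and 218 and 158 CPM, a difference of -0.92. The gene for an isoprenylcysteine methylesterase (Zm00001d044088) had 6.09 and 8.46 CPM and 9.79 and 6.36 CPM, a difference of -0.97. In the replicated stage experiment these 4 genes had log2 fold changes of 0.25, -0.20, 0.28 and 0.15, in the same order.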

How the results depend on the processing

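Of the 128 members higher and 61 lower at 7 DAP, DESeq2 called 107 and 59, and leaving out 1 replicate in turn gave 117 to 127 and 55 to 63. The count past a log2 fold change of 2, 1 as reported, was 0 with at least 10 counts in every library, 2 with no filter and 0 to 2 without 1 replicate. With library totals the median stage change was 0.20 in place of 0.08, and 3 named members turned to the other sign, cyc8 at 0.0046, the RUNKEL gene Zm00001d008321 at 0.0035 and krp13 at 0.11. The cause was not tested, beyond the shift of all genes by 0.115 with that scaling. With the replicate number as a block, 128 members were higher and 61 lower, and 82 of the 84 named members kept their call. The numbers do not pair the replicates, whose deviations from the stage means correlated at 0.10, 0.02 and -0.0045 for equal numbers. Leaving out 1 replicate, the calls of named members held in 466 cases, were lost in 27 and gained in 11.

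In protoplasts, 77 to 126 members were lower when 1 library was left out, 206 with no fold limit and 29 at a log2 limit of 2, at which 4 were higher. The median was -1.03 with library totals, where all genes moved by -0.168. In single libraries, the median stage change of undigested endosperm was 0.097 with TMM-scaled CPM in place of 0.17, and 1 member fell past 1 in place of 0. In protoplasts, 12 members rose past 1 with a pseudocount of 0.1 in place of 6. Members of few counts, the lowest tested at 45 over 6 libraries, set the count past 2. The protoplast test has 1 residual degree of freedom and cannot separate digestion from whatever else differed between the single libraries.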
